A study of Homo sapiens with 9 samples.

Results

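The genes described here are 10 transcriptional regulators of the epithelial-mesenchymal transition (EMT): SNAI1, SNAI2, ZEB1, ZEB2, TWIST1, TCF4, HMGA2, SOX9, LEF1 and FOXC1. They were chosen by name, as the rows of a gene count table whose Ensembl identifiers carry these symbols in GENCODE release 29, and they are 10 of the 26186 genes in that table. All 10 were found and passed the filter on low counts. In EMT an epithelial cell loses its junctions and polarity and gains motility and matrix contacts. SNAI and ZEB proteins are zinc finger repressors that bind E-boxes in epithelial genes such as CDH1, and TWIST1 and TCF4 are basic helix-loop-helix proteins that bind E-boxes as dimers. HMGA2, SOX9, LEF1 and FOXC1 belong to other families of DNA-binding proteins and have each been tied to EMT or to stem-like states in mammary cells.

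Polyadenylated RNA was sequenced from MCF10A, a human mammary epithelial line that does not form tumours, in 3 groups of 3 libraries. The cells of shCHAF1B-1 and of shCHAF1B-2 carried a first or a second lentiviral pLKO.1 short hairpin RNA against CHAF1B, a subunit of the chromatin assembly factor CAF-1, which places histones H3 and H4 on newly copied DNA. The shGFP cells carried a hairpin against green fluorescent protein. All 3 groups were grown in medium with horse serum, insulin, EGF, cholera toxin and hydrocortisone, were selected with 2 µg/mL puromycin starting 24 h after transduction, and gave RNA 3 days after infection. Each hairpin is a single reagent. Whether the libraries of a group came from separate cultures is not given in the labels, so p-values measure the spread between these libraries, which may be technical.

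Library totals ranged from 24339914 to 31819468 counts. The targeted gene, CHAF1B, stood at 2.56 to 3.88 CPM (read counts scaled to library size with the TMM method) in shCHAF1B-1 and 2.66 to 3.89 CPM in shCHAF1B-2, against 35.2 to 41.0 CPM in shGFP. Basal mammary epithelial markers summed to 8990 to 9710 CPM in shCHAF1B-1, 8770 to 9350 CPM in shCHAF1B-2 and 10200 to 11100 CPM in shGFP. Luminal markers summed to 3630 to 4250, 3480 to 3930 and 3210 to 3670 CPM in the same groups, so these ranges overlapped. One library stood apart: in shCHAF1B-1 replicate 3, 12 of 12 B lymphocyte markers were measured and summed to 236 CPM, against 1.71 to 3.05 CPM in the other 8 libraries, and the 3 measured of 9 T lymphocyte markers summed to 3.98 CPM, against 0.0641 to 0.378 CPM. LEF1, TCF4 and ZEB2 are also expressed in lymphocytes, and ZEB1 was highest in that library. The values of these genes are therefore given below with and without that library. The 5 measured of 6 endothelial markers summed to 11.3 to 12.0, 10.7 to 12.6 and 3.87 to 4.53 CPM in shCHAF1B-1, shCHAF1B-2 and shGFP, the 5 of 8 myeloid markers to 44.7 to 45.6, 41.2 to 43.0 and 29.1 to 32.9 CPM, and the 7 of 9 fibroblast markers to 55.0 to 58.7, 57.2 to 58.4 and 43.6 to 46.9 CPM. Single markers within these sums differed, by the calls defined below. CD14 was the only myeloid marker and PECAM1 the only endothelial marker called by both hairpins, and both rose. Of the fibroblast markers, FAP and COL1A1 rose with both hairpins and DCN fell. Of the basal markers, LAMA3 and ITGB4 rose with both hairpins and KRT5, KRT17, TRIM29, KRT14 and CDH3 fell. Of the luminal markers, KRT8, KRT19 and KRT18 rose with both hairpins and EPCAM fell. The part of these markers in the results was not tested. In bulk RNA, more cells of a type and more RNA per cell cannot be told apart.

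Of the 10 regulators, 6 rose with each hairpin and 3 fell with each hairpin, and TWIST1 was called by neither. A gene was called at a Benjamini-Hochberg adjusted p under 0.05 in the edgeR quasi-likelihood test, with the adjustment over all 16235 genes tested. SNAI1, SNAI2, ZEB1, ZEB2, HMGA2 and SOX9 rose, and TCF4, LEF1 and FOXC1 fell. The background was high: shCHAF1B-1 against shGFP called 53.2% of all genes tested (27.9% up and 25.2% down), shCHAF1B-2 against shGFP called 51.3% (26.7% up and 24.6% down), and 44.7% were called the same way by both (23.8% up and 20.8% down). Both comparisons use the same 3 shGFP libraries. In the mean of both hairpins against shGFP, the same counts of 6 up and 3 down stood beside a background of 56.9% called (29.2% up and 27.7% down). For each of the 9 called genes the 6 knockdown libraries and the 3 shGFP libraries did not overlap, which was also true of 48.6% of all genes tested (25.8% above and 22.7% below).

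By size of change, SNAI1, ZEB1, HMGA2 and SOX9 were at least 2-fold higher with both hairpins, 4 of 10, where 5.06% of all genes tested passed that threshold upward and 1.5% downward. With a single hairpin the upward share of all genes was 6.34% for shCHAF1B-1 and 5.53% for shCHAF1B-2. None of the 3 falling regulators reached a 2-fold change. The median log2 fold change of the 10 genes was 0.78 for shCHAF1B-1 and 0.79 for shCHAF1B-2, against -0.00 and -0.01 over all genes tested. The genes were chosen with results of these libraries known, so these medians and counts are descriptions.

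**Figure D1:**
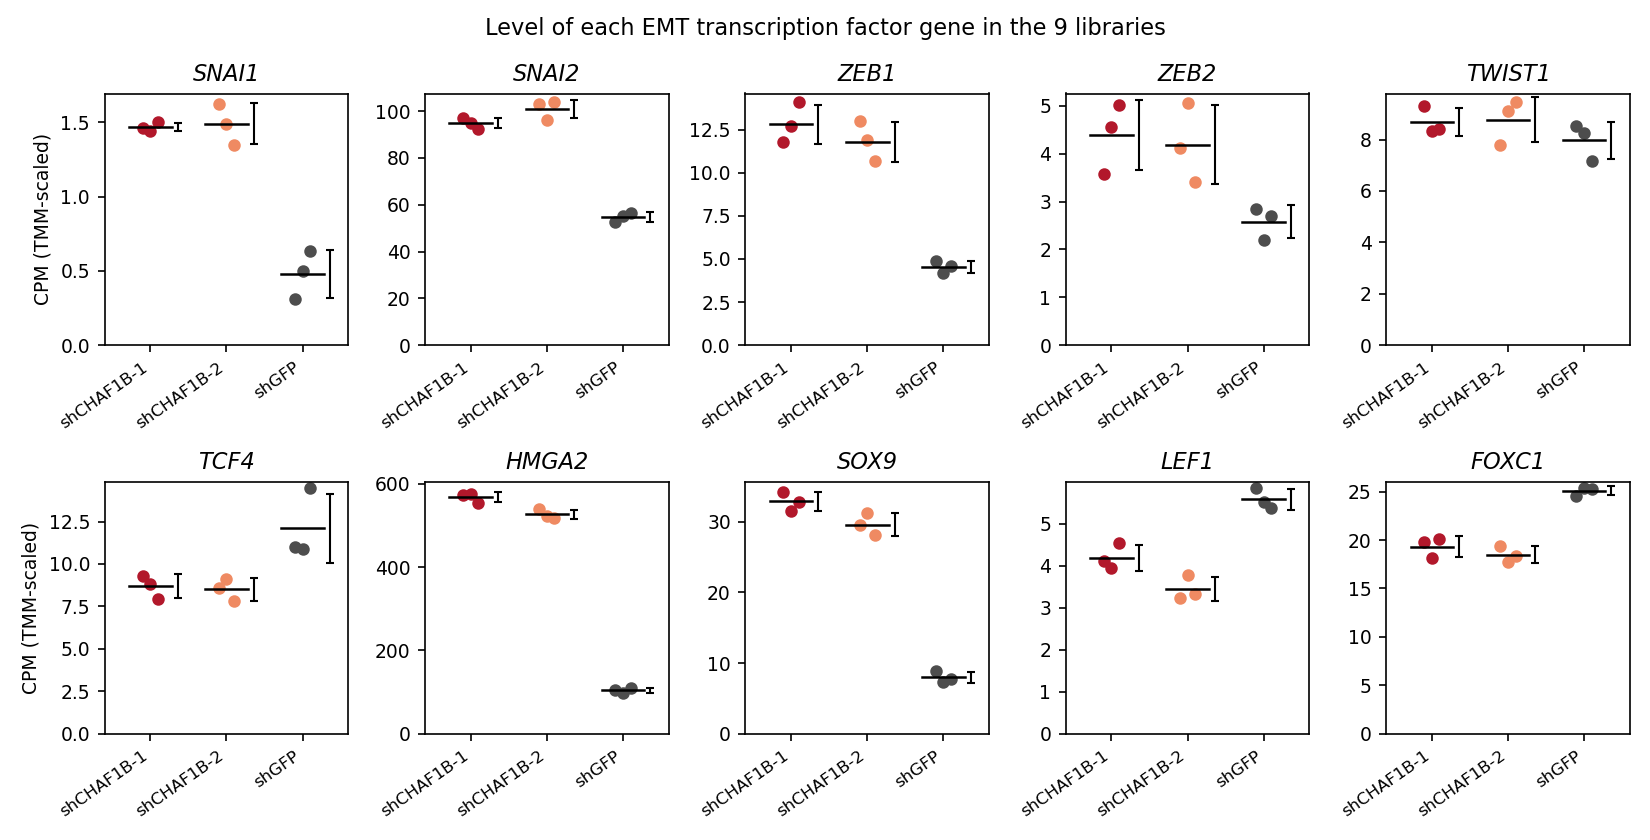
Level of each regulator in TMM-scaled CPM (vertical axis, from 0, with its own scale in each panel) in the 3 libraries of shCHAF1B-1, shCHAF1B-2 and shGFP (points), with the group mean (horizontal line) and SD (bar at its right). HMGA2 stands at 518 to 577 CPM in the 6 knockdown libraries and at 97.8 to 110.0 CPM in shGFP, and only the TWIST1 panel shows overlap between knockdown and shGFP libraries.

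The SNAI genes encode repressors of E-cadherin. SNAI1 (ENSG00000124216.3, chr20:49982999-49988886, GRCh38, plus strand) encodes Snail, a short-lived protein held low by phosphorylation and degradation. Its messenger RNA was scarce, at 1.46, 1.44 and 1.5 CPM in shCHAF1B-1 and 1.62, 1.49 and 1.35 CPM in shCHAF1B-2, against 0.308, 0.502 and 0.631 CPM in shGFP. These levels rest on 32 to 45 reads in each knockdown library and on 8, 14 and 18 reads in the shGFP libraries, so the SNAI1 change had the widest error of the 10, though the groups did not overlap. SNAI1 rose by a log2 fold change of 1.59 ± 0.248 (SE) under shCHAF1B-1 and of 1.61 ± 0.25 under shCHAF1B-2 (edgeR adjusted p = 7.78e-05 and 8.1e-05).

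SNAI2 (ENSG00000019549.10, chromosome 8) encodes Slug, which basal mammary cells express and which has been tied to their stem cell activity. It stood at 96.9, 95.1 and 92.6 CPM in shCHAF1B-1 and 103, 96.4 and 104 CPM in shCHAF1B-2, against 52.7, 55.2 and 56.6 CPM in shGFP. Every knockdown library stood above every shGFP library, and the groups were tight. The rise was 1.73-fold with shCHAF1B-1 and 1.84-fold with shCHAF1B-2, log2 fold changes of 0.79 ± 0.0483 and 0.88 ± 0.0483 (edgeR adjusted p = 1.55e-08 and 5.96e-09), under the 2-fold mark that SNAI1 passed.

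ZEB1 and ZEB2 encode paired-cluster zinc finger proteins that repress epithelial genes and, with the miR-200 family, form a loop in which each side represses the other. ZEB1 (ENSG00000148516.21, chr10:31318495-31529814, plus strand) stood at 11.8, 12.7 and 14.1 CPM in shCHAF1B-1 and 13, 11.9 and 10.7 CPM in shCHAF1B-2, against 4.86, 4.16 and 4.6 CPM in shGFP. The lowest knockdown library, at 10.7 CPM, was well above the highest shGFP library, at 4.86 CPM. ZEB1 rose with log2 fold changes of 1.5 ± 0.107 and 1.38 ± 0.108 (edgeR adjusted p = 6.07e-08 for shCHAF1B-1 and 1.67e-07 for shCHAF1B-2). The highest ZEB1 level was in the library with B lymphocyte transcripts. Without that library the log2 fold change with shCHAF1B-1 was 1.44 (edgeR adjusted p = 1.36e-07).

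ZEB2 (ENSG00000169554.19, chr2:144364364-144524583, minus strand) varied more between libraries. It stood at 3.58, 4.55 and 5.01 CPM in shCHAF1B-1 and 4.12, 5.06 and 3.41 CPM in shCHAF1B-2, against 2.85, 2.19 and 2.70 CPM in shGFP. The closest libraries, the third of shCHAF1B-2 and the first of shGFP, were 3.41 and 2.85 CPM, so the groups did not overlap but nearly met. The change on the log2 scale was 0.77 ± 0.176 with shCHAF1B-1 and 0.70 ± 0.178 with shCHAF1B-2 (edgeR adjusted p = 0.0022 and 0.0045). The highest ZEB2 level within shCHAF1B-1 was in the library with B lymphocyte transcripts, and without that library the log2 fold change with shCHAF1B-1 was 0.67 (edgeR adjusted p = 0.00888).

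The ZEB transcripts are textbook targets of the miR-200 family and of miR-205, so the microRNAs and their sites are shown here. The microRNAs themselves were not measured. The mature sequences are from RefSeq (GRCh38.p14), 5′ to 3′, and the capitals mark the seed, bases 2 to 8. miR-200b, miR-200c and miR-429 share a seed, and miR-200a and miR-141 share another.
hsa-miR-200b-3p: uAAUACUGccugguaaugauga
hsa-miR-200c-3p: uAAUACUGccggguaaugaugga
hsa-miR-429: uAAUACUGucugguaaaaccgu
hsa-miR-200a-3p: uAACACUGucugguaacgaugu
hsa-miR-141-3p: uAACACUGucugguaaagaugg
hsa-miR-205-5p: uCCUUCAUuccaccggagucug

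The 3′ UTR of ZEB1 (1938 bases, ENST00000320985.14) and that of ZEB2 (5370 bases, ENST00000627532.2) each held 5 matches to the miR-200b/200c/429 seed, the letters CAGTATT on the transcript strand. Among 19115 genes with a 3′ UTR in GENCODE release 29, 14.7% held at least 1 such match and 6 genes, or 0.0314%, held at least 5. The miR-200a/141 match, CAGTGTT, occurred 3 times in ZEB1 and 4 times in ZEB2, where 16.6% of genes held at least 1, 0.895% at least 3 and 0.267% at least 4. The miR-205 match, ATGAAGG, occurred once in ZEB1, and 10.2% of genes held at least 1. Of the other regulators, SNAI2 and TCF4 held 1 CAGTATT each, TCF4 held 2 CAGTGTT, and SOX9 and FOXC1 held 1 CAGTGTT each. These shares are not adjusted for the length of the 3′ UTR. The longest 3′ UTR among the principal transcripts of each gene was used, a choice made after other choices had been seen, and a match is a description of the letters, not a measured site. The first and last CAGTATT matches of each gene are shown with their flanking bases, 5′ to 3′, with the match in capitals.
ZEB1, 3′ UTR positions 369 to 375: tgttttatcttatCAGTATTat
ZEB1, 3′ UTR positions 1313 to 1319: tcttcaaacctggCAGTATTaa
ZEB2, 3′ UTR positions 392 to 398: cactaccatacatCAGTATTtt
ZEB2, 3′ UTR positions 1029 to 1035: atactgtagtgtaCAGTATTat

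Of the host transcripts of these microRNAs given here, MIR205HG was called and MIR200CHG was not. No host value is given for miR-200b, miR-200a and miR-429, which lie on chromosome 1. MIR200CHG, the host of miR-200c and miR-141, averaged 2.72 CPM in shCHAF1B-1 and 2.47 CPM in shCHAF1B-2, against 2.88 CPM in shGFP, and was not called (edgeR adjusted p = 0.725 and 0.387). MIR205HG, the host of miR-205, rose to 837 ± 17.8 CPM in shCHAF1B-1 and 739 ± 74.2 CPM in shCHAF1B-2, against 541 ± 31.8 CPM in shGFP (SD, n = 3 each), with log2 fold changes of 0.63 and 0.45 in the edgeR fit. A host transcript need not track its mature microRNA.

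The first of 7 ZEB1 promoter windows is shown, and an antisense gene is transcribed across it and across others. The 250 bases before the first ZEB1 start in RefSeq (GRCh38.p14, chr10:31318167-31318416, plus strand) lie over an exon of ZEB1-AS1 (chr10:31206278-31320447, minus strand) and hold a single E-box CAGGTG, in capitals, 57 bases before the start.
ZEB1: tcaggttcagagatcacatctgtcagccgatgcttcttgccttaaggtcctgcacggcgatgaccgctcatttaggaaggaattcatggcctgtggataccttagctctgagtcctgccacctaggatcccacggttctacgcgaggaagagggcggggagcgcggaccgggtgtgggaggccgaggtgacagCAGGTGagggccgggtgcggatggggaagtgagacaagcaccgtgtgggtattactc
The E-box CAGGTG or its complement CACCTG was present in 17.5% of 35116 RefSeq promoter windows of that length. ZEB1-AS1 averaged 2.74 CPM in shCHAF1B-1 and 2.68 CPM in shCHAF1B-2, against 3.19 CPM in shGFP, and was not called (edgeR adjusted p = 0.327 and 0.267). The library kit did not mark strand, so reads in the overlap cannot be assigned to ZEB1 or to its antisense partner.

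TWIST1 and TCF4 represent the basic helix-loop-helix class. TWIST1 (ENSG00000122691.12, chr7:19020991-19117672, minus strand) drives mesenchymal fate in the embryo and dimerises with E proteins, of which TCF4 is one. It stood at 9.31, 8.33 and 8.40 CPM in shCHAF1B-1 and 7.78, 9.11 and 9.46 CPM in shCHAF1B-2, against 8.52, 8.24 and 7.16 CPM in shGFP. The 3 groups overlapped. TWIST1 had a log2 fold change of 0.12 with shCHAF1B-1 (95% interval -0.10 to 0.34) and 0.14 with shCHAF1B-2 (-0.08 to 0.36), and the edgeR adjusted p was 0.339 and 0.278. These upper bounds lie below the lower bounds for SNAI1 (1.05 and 1.07) and ZEB1 (1.27 and 1.15). For ZEB2 the lower bounds were 0.39 and 0.32, so with shCHAF1B-2 the ZEB2 and TWIST1 intervals overlapped.

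TCF4 (ENSG00000196628.16, chr18:55222331-55664787, minus strand) encodes the E protein E2-2 and is not the Wnt factor of that nickname, which is TCF7L2. It fell to 9.31, 8.85 and 7.93 CPM in shCHAF1B-1 and 8.57, 9.14 and 7.82 CPM in shCHAF1B-2, against 11, 10.9 and 14.5 CPM in shGFP. The third shGFP library was the high one, and all 6 knockdown libraries lay below all 3 shGFP libraries. TCF4 changed by log2 fold changes of -0.48 ± 0.116 and -0.51 ± 0.118 (edgeR adjusted p = 0.00324 for shCHAF1B-1 and 0.00245 for shCHAF1B-2). Without the library that held B lymphocyte transcripts it was -0.42 with shCHAF1B-1 (edgeR adjusted p = 0.0134).

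HMGA2 (ENSG00000149948.13, chr12:65824131-65966295, plus strand) encodes an AT-hook protein of fetal chromatin that is low in most adult tissues and, in mouse mammary cells, acts upstream of SNAI1 and TWIST1 in TGF-beta-driven EMT. It showed the largest change of the 10. Its level was 573, 577 and 554 CPM in shCHAF1B-1 and 539, 524 and 518 CPM in shCHAF1B-2, against 105, 97.8 and 110.0 CPM in shGFP. The lowest knockdown library was far above the highest shGFP library. The rise was 5.45-fold and 5.06-fold, log2 fold changes of 2.45 ± 0.0493 and 2.34 ± 0.0494 (edgeR adjusted p = 4.46e-13 for shCHAF1B-1 and 6.68e-13 for shCHAF1B-2). HMGA2 made up 74.8% to 75.8% of the summed CPM of the 10 genes, not corrected for length, in shCHAF1B-1 and 73.6% to 73.9% in shCHAF1B-2, against 45.0% to 46.9% in shGFP.

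A pseudogene transcript, RPSAP52 (chr12:65758020-65826997, minus strand), runs antisense across the start of HMGA2. It stood at 20.0, 20.5 and 21.4 CPM in shCHAF1B-1 and 19.4, 19.1 and 21.5 CPM in shCHAF1B-2, against 6.32, 6.09 and 6.81 CPM in shGFP. RPSAP52 rose with log2 fold changes of 1.68 and 1.64 (edgeR adjusted p = 1.24e-09 and 1.86e-09). Without strand, reads from HMGA2 and RPSAP52 cannot be told apart where they overlap, and RPSAP52 also carries ribosomal protein pseudogene sequence, so its own value is uncertain.

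HMGA2 is the classic target of the let-7 microRNAs, and its sites are shown for that reason. The RefSeq sequences of let-7a and let-7b (GRCh38.p14) share the seed in capitals.
hsa-let-7a-5p: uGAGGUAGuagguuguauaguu
hsa-let-7b-5p: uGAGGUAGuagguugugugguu
The HMGA2 3′ UTR of 3003 bases (ENST00000403681.6) held 4 matches to that seed, the letters CTACCTC, and none of the other 9 genes held any in the 3′ UTR searched. Of 19115 genes, 8.57% held at least 1 match and 12 genes, or 0.0628%, held at least 4.
HMGA2, 3′ UTR positions 21 to 27: caacgttcgatttCTACCTCag
HMGA2, 3′ UTR positions 1256 to 1262: ccactactcaataCTACCTCtg
HMGA2, 3′ UTR positions 1668 to 1674: gacttgcaaagacCTACCTCca
HMGA2, 3′ UTR positions 2521 to 2527: tcaaaacacactaCTACCTCtt
MIRLET7BHG, the host of let-7b, averaged 9.81 CPM in shCHAF1B-1 and 8.07 CPM in shCHAF1B-2, against 6.78 CPM in shGFP. It was called up with shCHAF1B-1 (log2 fold change 0.54, edgeR adjusted p = 0.00266) and not with shCHAF1B-2 (0.25, adjusted p = 0.118). Mature let-7 was not measured.

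SOX9 (ENSG00000125398.6, chr17:72121020-72126420, plus strand) encodes an HMG-box factor of cartilage and of mammary progenitors, which in mouse works together with SNAI2 in mammary stem cells. It stood at 34.3, 31.5 and 32.8 CPM in shCHAF1B-1 and 29.5, 31.3 and 28.1 CPM in shCHAF1B-2, against 8.90, 7.35 and 7.68 CPM in shGFP. The groups were well apart, and only HMGA2 changed more among the 10. The rise in log2 terms was 2.04 ± 0.0795 with shCHAF1B-1 and 1.90 ± 0.0802 with shCHAF1B-2 (edgeR adjusted p = 1.59e-10 and 4.01e-10).

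LEF1 (ENSG00000138795.9, chr4:108047545-108168956, minus strand) encodes an HMG-box partner of beta-catenin. It fell to 4.11, 3.94 and 4.53 CPM in shCHAF1B-1 and 3.24, 3.77 and 3.32 CPM in shCHAF1B-2, against 5.86, 5.52 and 5.37 CPM in shGFP. All knockdown libraries were lower than all shGFP libraries, and the shCHAF1B-2 libraries were lower than those of shCHAF1B-1. The log2 fold change was -0.41 ± 0.109 and -0.69 ± 0.113 (edgeR adjusted p = 0.00565 for shCHAF1B-1 and 0.000162 for shCHAF1B-2). Without the library that held B lymphocyte transcripts, in which LEF1 was highest within its group, the change with shCHAF1B-1 was -0.47 (edgeR adjusted p = 0.0057).

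FOXC1 (ENSG00000054598.7, chr6:1609972-1613897, plus strand) encodes a forkhead factor characteristic of basal-like breast cells. It stood at 19.8, 18.1 and 20.1 CPM in shCHAF1B-1 and 19.4, 17.7 and 18.3 CPM in shCHAF1B-2, against 24.5, 25.4 and 25.3 CPM in shGFP. The shGFP libraries lay close together and above every knockdown library. The log2 fold change was -0.38 ± 0.0643 and -0.44 ± 0.065 (edgeR adjusted p = 0.000228 for shCHAF1B-1 and 7.25e-05 for shCHAF1B-2). Its upstream window is shown because it is the only one listed for the gene and no annotated exon lies in it (RefSeq, GRCh38.p14, chr6:1609665-1609914, plus strand). ZEB2 and LEF1 also had a single window, but exons lie in those.
FOXC1: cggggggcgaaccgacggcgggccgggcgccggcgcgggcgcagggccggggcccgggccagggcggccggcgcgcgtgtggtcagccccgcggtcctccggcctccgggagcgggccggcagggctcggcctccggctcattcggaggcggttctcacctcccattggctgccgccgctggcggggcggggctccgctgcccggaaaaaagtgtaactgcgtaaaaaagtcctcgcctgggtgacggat
The FOXC1 window was 76.8% G and C, against a median of 58.0% over all windows, and held neither CAGGTG nor the LEF/TCF core CTTTGA on either strand. Other regulators that fell had windows lower in G and C, 47.6% for LEF1 and 34.4% to 68.0% over the TCF4 windows, and the ZEB1 windows spanned 42.4% to 73.6%. The LEF/TCF core or its complement TCAAAG was in 11.2% of all windows.

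**Figure D2:**
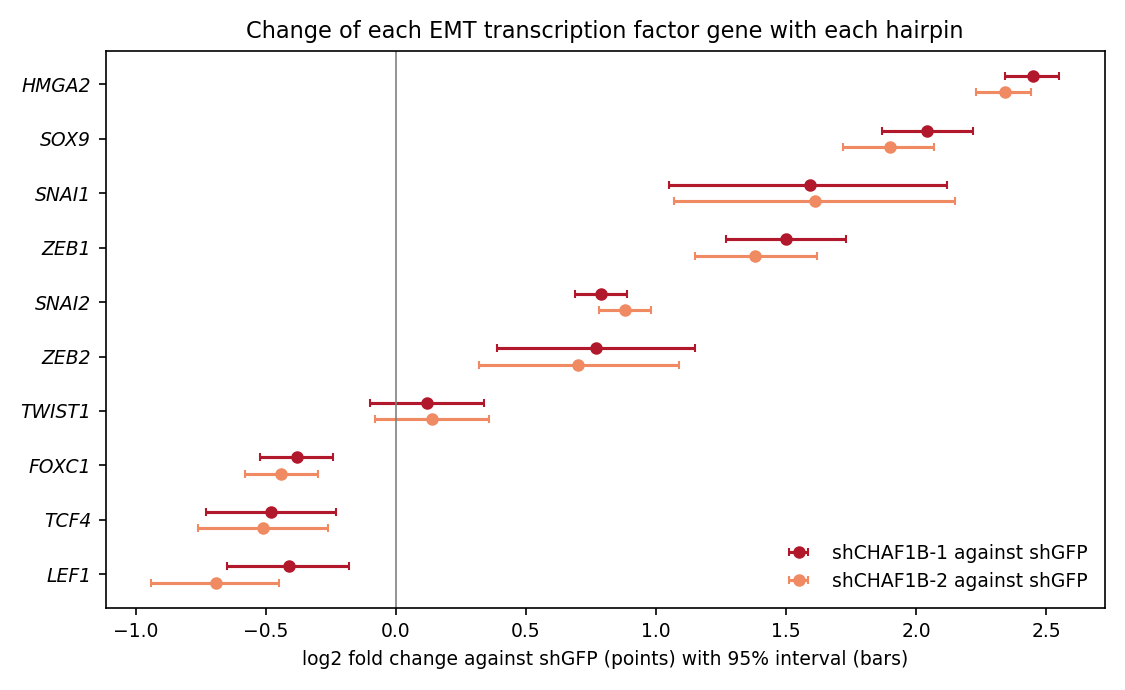
Log2 fold change of each regulator against shGFP (horizontal axis, with 95% intervals as bars) for shCHAF1B-1 and shCHAF1B-2, ordered by the mean of both hairpins. HMGA2 is at the top with 2.45 and 2.34 and LEF1 at the bottom with -0.41 and -0.69, and the TWIST1 intervals are the ones that span 0.

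Between the hairpins, none of the 10 regulators was called, and neither was any of the 16235 genes tested, 0.0% of the table, in shCHAF1B-2 minus shCHAF1B-1. At an unadjusted p under 0.05, edgeR counted 1800 of the 16235 genes, DESeq2 1238 and limma-voom 1705, and each of the 3 tools called 0 after adjustment. Without shCHAF1B-2 replicate 2, edgeR counted 2799 of 16557 genes at that unadjusted p. LEF1 had the largest difference, -0.28 on the log2 scale (95% interval -0.53 to -0.03, edgeR adjusted p = 0.439). Without the library that held B lymphocyte transcripts, the LEF1 difference was -0.22 (edgeR adjusted p = 0.615). HMGA2 differed by -0.11 (-0.21 to -0.00) and SOX9 by -0.15 (-0.30 to 0.00). SNAI2 differed by 0.09 (-0.01 to 0.19), ZEB1 by -0.12 (-0.33 to 0.09) and SNAI1 by 0.02 (-0.42 to 0.46). The SNAI1 interval was the widest of the 10, and a p that missed the threshold does not show equal responses.

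Per length, the regulators changed rank. Levels were divided by the kilobases of exon in each gene, which allows genes to be compared. HMGA2 led in the knockdowns, at 36.9 CPM per kilobase in shCHAF1B-1 and 34.2 in shCHAF1B-2, followed by SNAI2 at 28 and 29.8, whereas in shGFP SNAI2 led at 16.2 and HMGA2 followed at 6.77. SOX9 was the third of the 10 in both knockdowns, at 8.36 and 7.53 CPM per kilobase, and the fifth in shGFP, at 2.03. SNAI1 stood at 0.871 and 0.881, above LEF1 at 0.782 and 0.642, whereas in shGFP SNAI1 stood at 0.285, below LEF1 at 1.04. With the longest transcript as the length, SNAI1 stayed below LEF1 in both knockdowns, at 0.871 and 0.881 against 1.21 and 0.991 for LEF1, with overlapping libraries in shCHAF1B-2.

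The middle of the order held FOXC1 (4.92 in shCHAF1B-1, 4.71 in shCHAF1B-2 and 6.39 in shGFP), TWIST1 (4.27, 4.32 and 3.92) and ZEB1 (1.48, 1.37 and 0.524). TCF4 (0.312, 0.306 and 0.436) and ZEB2 (0.175, 0.167 and 0.103) were low in every group. Libraries of neighbours in the order overlapped for FOXC1 and TWIST1 in shCHAF1B-2, and for HMGA2 and FOXC1 and for ZEB1 and TCF4 in shGFP. All other neighbours were apart. The exon length of HMGA2 was 15403 bases over all its isoforms and 8094 in the longest transcript, and with the longest transcript as the length 5 of the 10 places changed in shCHAF1B-1, 4 in shCHAF1B-2 and 2 in shGFP.

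**Figure D3:**
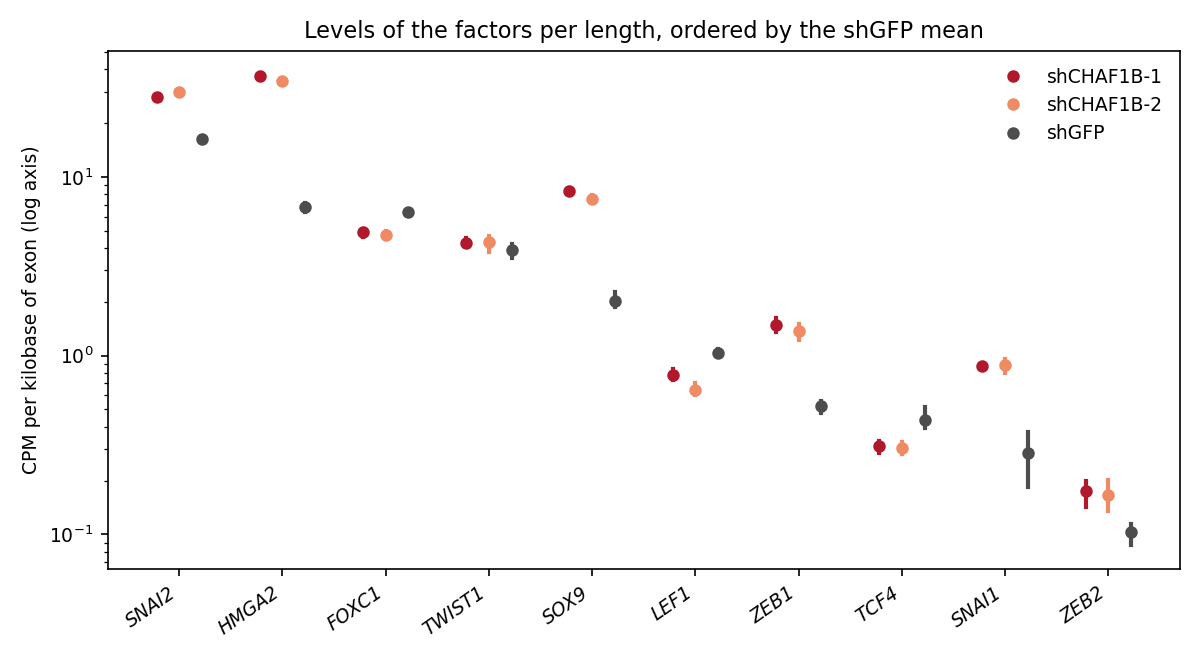
Level of each regulator in CPM per kilobase of exon (log axis) in shCHAF1B-1, shCHAF1B-2 and shGFP, with the group mean (points) and the range over 3 libraries (vertical lines), ordered from left to right by the shGFP mean. HMGA2 moves above SNAI2 in the knockdowns, at 36.9 and 34.2 against 6.77 in shGFP.

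The genes whose profiles were closest to HMGA2 and LEF1 were sought among 16234 genes, by the Euclidean distance between log2 CPM values over the 9 libraries, each centred on its own shGFP mean. HMGA2 and LEF1 had the largest rise and fall in the mean of both hairpins, -0.55 for LEF1 beside -0.50 for TCF4, but TCF4 had the larger fall with shCHAF1B-1, and in that mean without shGFP replicate 1 or 2. Near HMGA2 were DCBLD2 (distance 0.206) and NOX5 (0.257). DCBLD2, a neuropilin-like membrane protein, averaged 1130 CPM in shCHAF1B-1 and 1120 CPM in shCHAF1B-2, against 206 CPM in shGFP. NOX5, an NADPH oxidase, averaged 10.6 and 10.8 CPM, against 2.0 CPM in shGFP. For LEF1 the nearest were ACD (0.213), CCDC137 (0.222) and FAM201A (0.235). ACD, the shelterin component TPP1, averaged 22 CPM in shCHAF1B-1 and 18.7 CPM in shCHAF1B-2, against 28.8 CPM in shGFP.

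Of 8 paralogs of the regulators tested, 3 rose and 1 fell with both hairpins, with a list median of 0.10 for shCHAF1B-1 and -0.02 for shCHAF1B-2. Beside this and the list counts below, 23.8% of all genes tested rose and 20.8% fell with both hairpins. HMGA1, the other HMGA gene, averaged 629 ± 32.6 CPM in shCHAF1B-1 and 564 ± 25.2 CPM in shCHAF1B-2, against 370 ± 27.4 CPM in shGFP (SD, n = 3 each). Its log2 fold change was 0.76 and 0.61, beside 2.45 and 2.34 for HMGA2. TCF7, a relative of LEF1, rose to 2.04 and 1.87 CPM, against 0.497 CPM in shGFP, and TCF7L1 rose to 2.85 and 3.04 CPM, against 1.79 CPM in shGFP. TCF7L2 fell with LEF1, to 17.4 and 17.1 CPM, against 23.0 CPM in shGFP. TWIST2 and FOXC2 had log2 fold changes between -0.16 and 0.00 and were called by neither hairpin. The E proteins TCF12 and TCF3 gave -0.05 and 0.20 with shCHAF1B-1 and -0.01 and -0.02 with shCHAF1B-2, and TCF3 alone was called, in the shCHAF1B-1 test (edgeR adjusted p = 0.0305). SNAI3 was too low to test, as was FOXCUT, a transcript beside FOXC1.

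Of 16 other EMT transcription factors tested, 8 rose and 3 fell with both hairpins, with medians of 0.32 and 0.40. Among the 8 was GATA6, whose call was lost under upper-quartile scaling, no filter, DESeq2 and limma-voom. It was also lost with only the groups compared, the replicate block and most fits with 1 library left out. The count that rose was 7 without shCHAF1B-1 replicate 3. FOSL1, an AP-1 subunit, averaged 134 CPM in shCHAF1B-1 and 120 CPM in shCHAF1B-2, against 55.8 CPM in shGFP, log2 fold changes of 1.27 and 1.11. ETS1, the founding ETS factor, averaged 90.0 and 84.1 CPM, against 43.5 CPM in shGFP. RUNX2, the bone factor also found in invasive breast cells, rose most among the named ones, to 7.97 and 7.10 CPM, against 1.82 CPM in shGFP (log2 fold changes 2.12 and 1.95). TBX3 rose to 25.7 and 25.4 CPM, against 13 CPM in shGFP. FOXM1, TEAD4 and MSX2 fell, with log2 fold changes between -0.78 and -0.38, and the MSX2 call was lost without shCHAF1B-1 replicate 2, shCHAF1B-2 replicate 2 or 3, or shGFP replicate 1 or 2.

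Mesenchymal genes raised in EMT had the largest median of the 12 lists of genes around the regulators. Of 18 tested, 15 rose and 3 fell with both hairpins, where 23.8% of all genes tested rose and 20.8% fell. The list median was 1.28 for shCHAF1B-1 and 1.24 for shCHAF1B-2, against -0.00 and -0.01 over all genes. Among the 15, CDH11 lost its call with a filter of 1 CPM in 3 libraries and with only the groups compared. ITGA5, the fibronectin receptor chain, averaged 702 CPM in shCHAF1B-1 and 643 CPM in shCHAF1B-2, against 140 CPM in shGFP. LOXL2, a lysyl oxidase that also binds Snail, rose with log2 fold changes of 2.72 and 2.58. MMP9, a gelatinase, was at 12.4 to 13.6 CPM and 10.3 to 10.9 CPM in shCHAF1B-1 and shCHAF1B-2, where the shGFP libraries held 1, 2 and 1 reads. VIM averaged 500 and 535 CPM, against 236 CPM in shGFP, and FN1 66.3 and 60.1 CPM, against 28.6 CPM in shGFP. The 3 that fell were TAGLN and ACTA2, contractile genes, and LOX, with log2 fold changes between -1.66 and -0.59.

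Of the epithelial genes that SNAI and ZEB proteins repress, more rose than fell. Of 27 tested, 10 rose and 4 fell with both hairpins, where 23.8% of all genes tested rose and 20.8% fell. The median was 0.08 for shCHAF1B-1 and 0.06 for shCHAF1B-2, against -0.00 and -0.01 over all genes. Among the 10, the TJP3 call was lost with DESeq2 and without shCHAF1B-2 replicate 1 or 2 or shGFP replicate 1 or 3. CDH1, E-cadherin, the best known of these targets, stood at 263, 258 and 251 CPM in shCHAF1B-1 and 251, 252 and 253 CPM in shCHAF1B-2, against 224, 223 and 227 CPM in shGFP. All 6 knockdown libraries were above all 3 shGFP libraries, by log2 fold changes of 0.19 and 0.16 (edgeR adjusted p = 0.000941 and 0.00353). CGN and CLDN4, tight junction genes, rose with log2 fold changes between 1.48 and 1.81. LAMB3, a chain of the basement membrane protein laminin-332, rose to 2790 and 2580 CPM, against 1000 CPM in shGFP. The 4 that fell were CLDN1, MARVELD3, EPCAM and DSP, with log2 fold changes between -0.73 and -0.23.

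Of 11 brakes on the EMT factors tested, 4 rose and 1 fell with both hairpins, where 23.8% of all genes tested rose and 20.8% fell. EHF, an epithelial ETS factor known to repress ZEB1, fell to 6.83, 6.22 and 8.28 CPM in shCHAF1B-1 and 6.69, 6.52 and 7.65 CPM in shCHAF1B-2, against 27.1, 27.3 and 30.1 CPM in shGFP, log2 fold changes of -1.99 and -2.02 (edgeR adjusted p = 2.49e-09 and 2.68e-09). The groups were far apart, and no other gene of that list changed as much. KLF4 and GRHL1 rose, with log2 fold changes between 0.69 and 0.83, as did MIR205HG and ELF3.

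TGF-beta signalling is the best studied inducer of the SNAI and ZEB genes. Of 18 of its genes tested, 13 rose and 3 fell with both hairpins, with medians of 0.46 and 0.52. The shares over all genes tested were 23.8% and 20.8%. SMAD3, the signal transducer, averaged 134 ± 3.3 CPM in shCHAF1B-1 and 122 ± 2.25 CPM in shCHAF1B-2, against 50 ± 1.17 CPM in shGFP (SD, n = 3 each). TGFBR2, the type II receptor, averaged 718 and 713 CPM, against 374 CPM in shGFP. INHBA, the activin A subunit, rose with log2 fold changes of 1.59 and 1.57. SMURF2, a ubiquitin ligase that limits the pathway, rose by 0.86 and 0.88, so inducers and inhibitors were both among those that rose. SKI, a corepressor of SMAD proteins, fell to 42.2 and 40.7 CPM, against 91.1 CPM in shGFP, and ACVR1B and TGFB2 also fell. The TGFB2 call was lost with DESeq2 and without shCHAF1B-1 replicate 1, shCHAF1B-2 replicate 1 or shGFP replicate 3. Without shCHAF1B-1 replicate 3 the count that rose was 11, as SMAD2 and SMAD4 were no longer called by both hairpins. The SMAD2 call was also lost under upper-quartile scaling, no filter, the replicate block and several other fits with 1 library left out.

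Of 23 genes listed as SNAI and ZEB corepressors and enzymes, 3 rose and 4 fell with shCHAF1B-1, and 3 rose and 7 fell with shCHAF1B-2. Both hairpins together gave 2 that rose and 4 that fell. The medians were -0.05 for shCHAF1B-1 and -0.01 for shCHAF1B-2. Over all genes tested, 27.9% rose and 25.2% fell with shCHAF1B-1 and 26.7% rose and 24.6% fell with shCHAF1B-2. With both hairpins 23.8% rose and 20.8% fell. LOXL2 and RCOR1, the CoREST scaffold, were the ones that rose, RCOR1 to 148 and 150 CPM, against 103 CPM in shGFP. EZH2, the Polycomb methyltransferase, fell to 42.8 and 43.1 CPM, against 52.9 CPM in shGFP, and AJUBA, SUV39H1 and MTA3 also fell, MTA3 by the least (log2 fold changes -0.18 and -0.14), a call that was lost under RLE scaling, no filter, DESeq2, only the groups compared, the replicate block and most fits with 1 library left out. Genes of SNAI and TWIST protein turnover gave 8 that rose with both hairpins of 19 tested, among them the F-box genes FBXL5 (log2 fold changes 0.43 and 0.50), BTRC (0.40 and 0.45) and FBXW7 (0.29 and 0.33) and the deubiquitinase USP3 (0.35 and 0.35). In the test of shCHAF1B-1, 3 other genes of that list fell. The GSK3B call, 1 of the 8, was lost under upper-quartile scaling, no filter, only the groups compared and some fits with 1 library left out.

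Among LEF1 and TCF partners and Wnt targets, 7 of 16 tested rose and 3 fell with both hairpins. For this list and the next, the shares over all genes tested were 23.8% up and 20.8% down. CTNNB1, beta-catenin, averaged 521 and 538 CPM, against 358 CPM in shGFP, and CTNNBIP1, an inhibitor of its binding to TCF factors, 83.4 and 83.6 CPM, against 30.6 CPM in shGFP. DKK1, a secreted Wnt inhibitor, and CCND1 rose, with log2 fold changes between 0.45 and 0.81. PYGO1, NKD1 and TLE4 fell, but NKD1 was not called by both hairpins with DESeq2, nor TLE4 without shGFP replicate 3. In the HMGA2 and let-7 list, 5 of 11 rose and 2 fell. The 11 included IMP3, not called the same way by both hairpins and a separate gene from IGF2BP3, which shares that nickname. IGF2BP2, an HMGA2 target in mouse, rose to 173 and 167 CPM, against 77.1 CPM in shGFP, and IGF2BP3 and TUT7 rose with log2 fold changes between 0.50 and 0.95. DROSHA, the microRNA processing enzyme, had log2 fold changes of -0.30 and -0.32, and DIS3L2 also fell.

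Few SOX9 or basic helix-loop-helix partners could be tested. Of 5 SOX9 partners and targets, COL2A1, the cartilage collagen, rose to 4.91 and 4.43 CPM, against 1.38 CPM in shGFP, whereas SOX6 (1.24 and 1.29 CPM, against 2.91 CPM in shGFP) and AMH fell, AMH with an edgeR adjusted p of 0.0274 for shCHAF1B-1 and 0.00048 for shCHAF1B-2. AMH was not called by both hairpins without shCHAF1B-1 replicate 2 or 3 or without shGFP replicate 1 or 2, which leaves 1 that fell. Of 6 partners of TWIST1 and TCF4, 2 fell with both hairpins, as did 20.8% of all genes tested. ID3, an inhibitor that binds E proteins, stood at 37.1 and 35 CPM, against 49.2 CPM in shGFP, and PRMT1 at 175 and 168 CPM, against 209 CPM in shGFP. ID1, ID2 and TCF12 were called by neither hairpin. TWISTNB (chr7:19695462-19709087), which lies outside TWIST1 despite its symbol, fell with log2 fold changes of -0.29 and -0.19, a call that was lost without shGFP replicate 3.

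**Figure D4:**
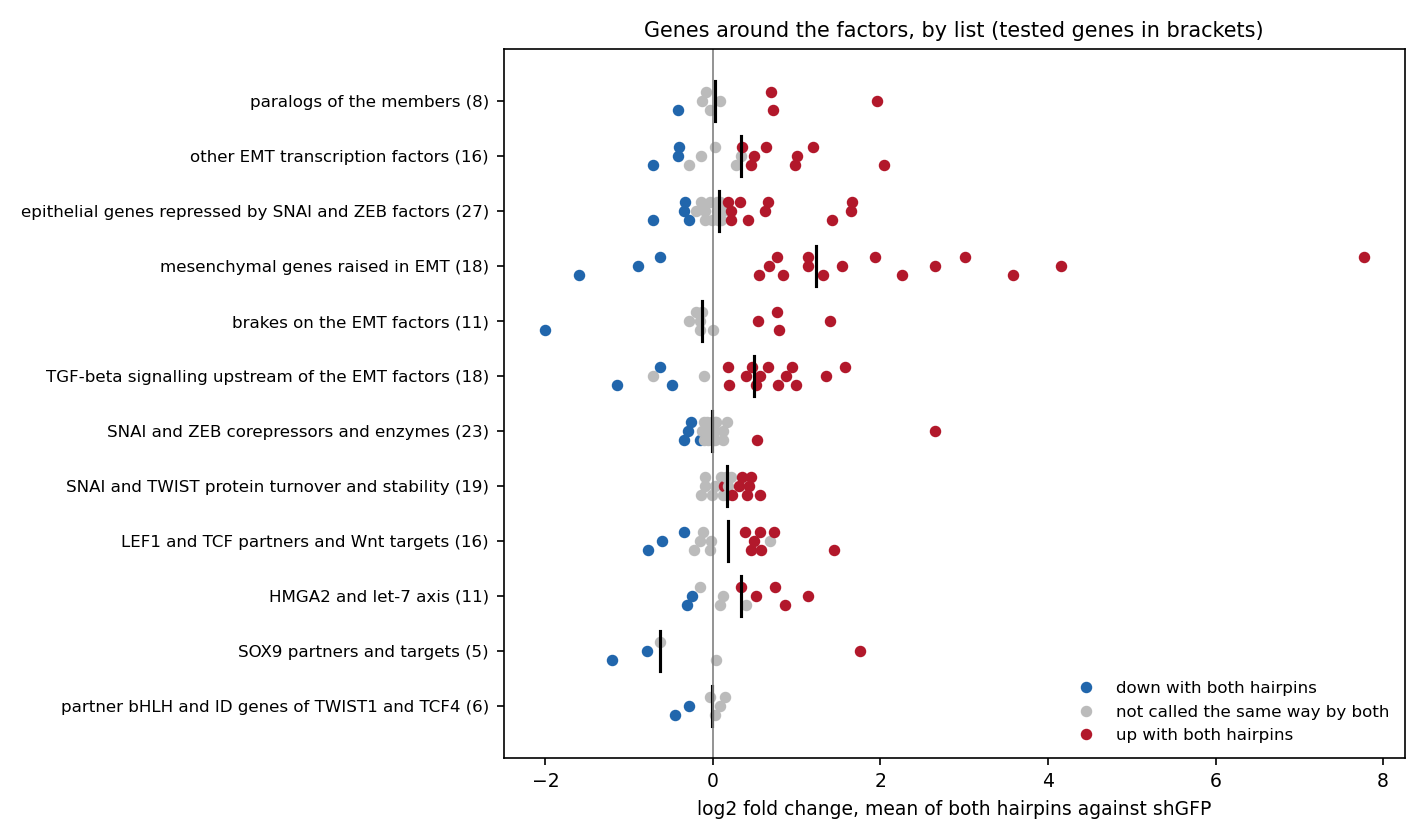
Log2 fold change of each tested gene, as the mean of both hairpins against shGFP (horizontal axis), in 12 lists of genes around the regulators (rows, tested genes in brackets), with the list median (vertical line) and colours for genes up with both hairpins, down with both, or not called the same way by both. The mesenchymal list lies mostly to the right of 0, with 15 of 18 genes up, and the epithelial list of 27 genes straddles 0.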

How the data were processed

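A count table covering 9 polyA RNA-seq libraries was used. The authors deposited raw counts per gene and library, whole numbers that were not normalized. Per the submitters' processing notes, the tools include DESeq2 1.18.1, HTSeq 0.8.0 and STAR 2.5.3a, and the builds hg38 and mm10, with no role given. The identifiers are human. Per the labels' protocols, libraries were made with the TruSeq RNA kit, version 2, which does not mark strand, so overlapping and antisense genes cannot be separated.

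Identifiers were matched to GENCODE release 29 (26149 of 26186 matched, 25293 with the same version). The lowest row total was 7 counts. No 2 libraries of a group were alike within sampling noise, and each was 1 replicate. Genes were filtered with filterByExpr (minimum count 10, minimum total 15, proportion 0.7), scaled by TMM and tested in 1 fit of all 9 libraries (edgeR 4.0.16, quasi-likelihood test, R 4.3.3) with group as the sole term (biological coefficient of variation 6.24%, median prior degrees of freedom 7.2). Intervals are at the 95% level, and SEs come from the weights of that fit. The fit was tested on simulated data. Alternatives used RLE and upper-quartile scaling, other filters, DESeq2 1.42.0, limma-voom (limma 3.58.1), a block by replicate number, only the groups compared, stricter thresholds, and leaving out each library. Python 3.11.15, pandas 2.3.3, numpy 2.4.6, SciPy 1.17.1 and matplotlib 3.10.9 were used for tables and figures.

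The regulators and the gene lists were chosen with earlier results of these data known. Named genes were the 10 regulators, CHAF1B, all paralogs and antisense or overlapping transcripts measured, the 3 nearest profiles of the largest riser and faller in the mean of both hairpins, and from each list up to 4 genes with the smallest larger adjusted p among those called the same way by both hairpins, plus genes needed for counts of 5 or fewer. CDH1, VIM, FN1, MIR200CHG, MIRLET7BHG, ID1 and ID2 were named after their values were seen. Some genes that this rule selects are not reported here. RefSeq promoter windows were found for ZEB1, ZEB2, TCF4, LEF1 and FOXC1. Motifs were searched on both strands of the 250 bases before each start, and seed matches on the transcript strand of 3′ UTRs.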

Additional observations from a re-analysis of the deposited data

How the results depend on the processing

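Against shGFP, 500 of 500 alternative values of the 10 log2 fold changes kept their direction and their side of the threshold, under RLE and upper-quartile scaling, both other filters, DESeq2, limma-voom, only the groups compared, the replicate block and leave-one-out. The count of regulators called stayed at 9 with each hairpin, their mean and both, and at 0 between the hairpins, with each library left out (9 to 9 and 0 to 0) and at adjusted p under 0.01. With a 2-fold threshold it was 4 in each comparison against shGFP. Listed genes called by both hairpins numbered 105 (76 up and 29 down), and 28 at 2-fold (24 up and 4 down). The count ranged from 99 to 108 with 1 library left out and was 103 under the replicate block. Of the 105, 0 turned sign under any fit. These are counts without a total of listed genes tested, so they are not shares. Over all genes tested, 44.7% were called the same way by both hairpins, and at 2-fold 5.06% were called up and 1.5% down by both. The replicate block gave 9 regulators called, 6 up and 3 down, and same-numbered libraries correlated between -0.138 and 0.1, so the numbers were not taken to pair them. Between hairpins, 9 of 170 values turned sign, all uncalled: with 1 library left out, the difference ranged from -0.05 to 0.08 for SNAI1, -0.22 to 0.07 for ZEB2 (turned at 0.04 and 0.07), -0.04 to 0.10 for TWIST1 (turned at -0.04, -0.01, -0.01 and -0.00) and -0.09 to 0.03 for TCF4 (turned at 0.02 and 0.03). With the longest transcript as length, 5, 4 and 2 places changed in shCHAF1B-1, shCHAF1B-2 and shGFP. Depth limits SNAI1 most, with 8 to 18 reads in shGFP.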
